A study of Mus musculus with 6 samples.

Results

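The genes described here encode the vesicle fusion machinery of the cell, namely the VAMP, SNAP and syntaxin proteins (SNAREs), the syntaxin binding proteins and the synaptotagmins. They were chosen by symbol, as every gene starting with Vamp, Stx, Stxbp, Syt or Snap followed by a digit, without pseudogenes, that had at least 30 counts over all libraries. This gave 38 of the 24224 genes in the table, from 44 symbol matches. Close to this minimum lay *Syt10*, *Syt15* and *Syt17*, with 33, 35 and 45 counts, and just below it *Syt8* and *Syt14*, with 27 and 24 counts. *Vamp9*, *Syt1* and *Syt16* had 8, 6 and 3 counts.

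Alveolar type II (AT2) cells were sorted as viable CD45- CD31- CD326+ MHCII+ cells from digested lungs of naturally aged WT mice (C57/6J in the labels, C57BL/6J in the methods of the study) at 24 m and at 3 m of age, with no other treatment at either age. RNA was sequenced from 3 replicates of 24 m cells and 3 replicates of 3 m cells. Several mice were pooled for each replicate, so that the spread between libraries is one between pools, and the number of mice in a pool is not given in the sources used here. The comparison addresses how transcripts of AT2 cells differ between old and young lungs.

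AT2 cells make pulmonary surfactant, store it in lamellar bodies and release it into the alveolus when these organelles fuse with the apical plasma membrane. In such a fusion an R-SNARE on the vesicle (a VAMP protein) zips together with Q-SNAREs on the target membrane (a syntaxin and a SNAP protein) and pulls the membranes against each other. Sec1/Munc18 proteins hold and guide the syntaxin, and synaptotagmins with calcium-binding C2 domains couple fusion to a calcium signal. Other syntaxins and VAMPs carry out the same step inside the cell, at the Golgi apparatus, endosomes, lysosomes and autophagosomes.

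The libraries held 28827930 to 32394985 counts. The 10 AT2 markers examined, among them the surfactant protein genes, summed to 183970, 186630 and 192810 CPM (counts relative to library size, with the TMM factors of edgeR) in the 24 m libraries and to 275810, 175650 and 198320 CPM in the 3 m libraries, and none of them was at 0. Replicate 2 of 3 m stood apart from the rest. It had a count of 0 for 693 genes with at least 20 counts in every other library (0 to 15 such genes in the others), 5.62% of its counts were mitochondrial (2.29% to 3.60% in the others), and its log2 CPM correlated with those of the other libraries at r = 0.866 to 0.901, where the others correlated among themselves at 0.948 to 0.981 (across genes). Results are therefore given with and without this library. Of the markers of other cell types, DESeq2 called several higher at 24 m, beside 1.63% of all genes. These were 4 of 11 leukocyte, 4 of 6 airway secretory, 3 of 6 plasma cell, 1 of 5 endothelial and 1 of 4 mesothelial markers. DESeq2 called no AT1, neuroendocrine, ciliated or stromal marker. With edgeR 0 markers were called over all libraries. Without 3 m replicate 2 edgeR called 4 airway secretory, 2 plasma cell, 1 leukocyte and 1 mesothelial marker higher at 24 m, beside 0.506% of all genes. The 11 leukocyte markers summed to 37.5, 95.5 and 12.7 CPM at 24 m, against 1.48, 6.80 and 8.83 CPM at 3 m, and the 6 airway secretory markers to 838, 1257 and 630.1 CPM at 24 m, against 669, 745 and 275 CPM at 3 m. Their part in the results below was not tested. In bulk RNA, fewer cells of a type and less RNA per cell cannot be told apart.

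No gene of the fusion machinery passed the test between the ages. Of the 38 genes, 35 had enough counts to be tested together with all other genes, 14899 in total, and *Syt10*, *Syt15* and *Syt17* did not. To be called, a gene needed a log2 fold change (24 m over 3 m) above 1 in size together with an adjusted p (Benjamini-Hochberg) under 0.05. With edgeR's quasi-likelihood test 0 of the 35 were called, beside 0% of all genes tested. At an unadjusted p under 0.05 edgeR found 0 of the 35, beside 5.86% of all genes tested (3.56% higher and 2.3% lower at 24 m). DESeq2 called 0 of 38, beside 1.79% of all genes with an adjusted p (1.63% higher and 0.16% lower at 24 m). With limma-voom 0 of 35 were called, beside 0% of all genes, and 0 had an unadjusted p under 0.05, beside 6.53%. DESeq2, too, gave 0 of 38 an unadjusted p under 0.05, beside 10.2% of all genes. Without 3 m replicate 2 edgeR called 0 of the 35 as well, beside 0.524% of all genes tested. That fit was filtered anew and tested 16216 genes. Counts given for it stay with the 35, although it also tested *Syt15* and *Syt17*. With all libraries, the adjusted p of the fusion machinery genes lay between 0.828 and 0.999 with edgeR and between 0.498 and 0.994 with DESeq2. The fitted log2 fold change was above 0 for 21 genes (60%, beside 53.8% of all genes tested) and below 0 for 14, with a median of 0.10 (from -0.90 to 1.88), beside 0.05 over all genes tested. Without 3 m replicate 2 it was above 0 for 19 genes (54.3%, beside 53.3%), with a median of 0.04, beside 0.03, and the sign had turned for 10 of the 35 (28.6%, beside 25.5% of all genes).

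**Figure D1:**
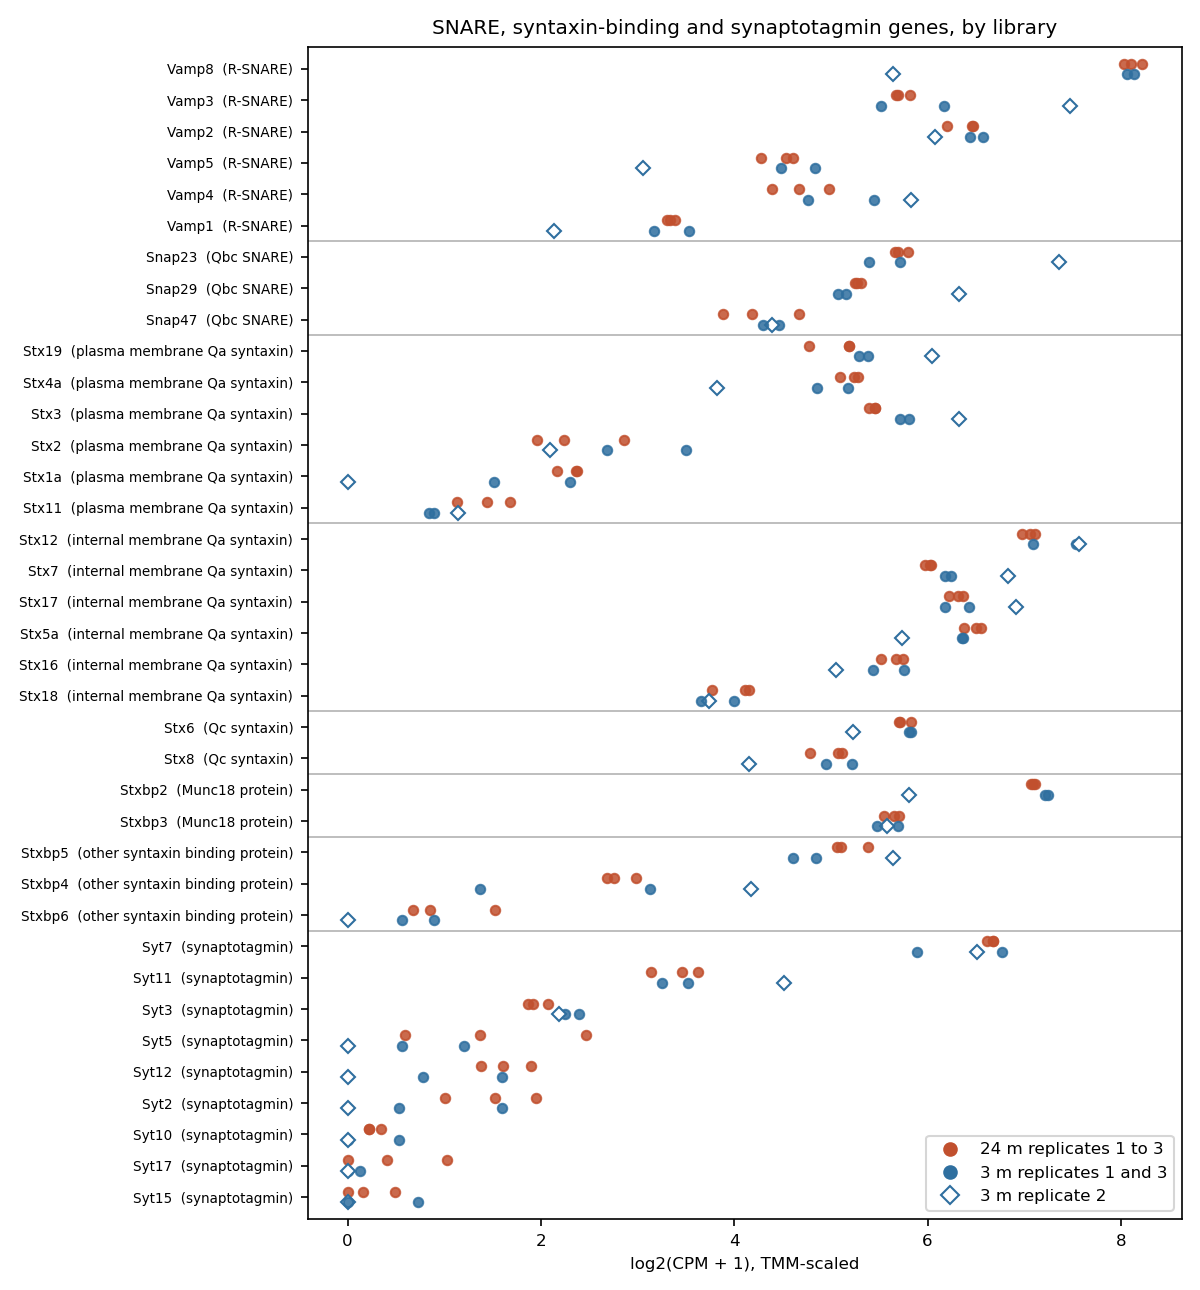
Level of 37 of the 38 genes in each library, on the scale log2(CPM + 1) with TMM scaling, grouped by role. Red points are the 24 m replicates, filled blue points are 3 m replicates 1 and 3, and open diamonds are 3 m replicate 2, which lay outside the range of the other 5 libraries for 27 of the 35 tested genes.

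Levels of different genes were compared by FPKM, the deposited value scaled to gene length and library size. The ranking of these genes was led by *Vamp8*, with a mean of 104 FPKM over the 6 libraries, followed by *Stx12* with 46.8, *Stxbp2* with 30.6, *Vamp3* with 25.2 and *Vamp2* with 21.6 FPKM. Next came *Stx7*, *Snap23*, *Stx17*, *Stx19*, *Stx5a*, *Stx4a* and *Syt7*, between 16.6 and 12.4 FPKM. Over the 5 libraries other than 3 m replicate 2 the first 3 kept their places, whereas *Vamp2* with 22.7 FPKM came before *Vamp3* with 19.0 FPKM, and *Snap23*, at 15.6 FPKM over all libraries, came to 11.7 FPKM and stood after *Stx16*. Lowest over all libraries were *Syt10*, *Syt17* and *Syt15*, each below 0.1 FPKM. Over the 38 genes the median was 5.99 FPKM, and over all genes tested it was 3.75 FPKM.

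Among the R-SNAREs, which sit on the vesicle, *Vamp8* was the most abundant. VAMP8 serves in secretory granule release of exocrine cells and in fusion of late endosomes and autophagosomes with lysosomes. *Vamp8* stood at 273, 297 and 260.1 CPM in the 24 m libraries, against 279, 49.1 and 267 CPM in the 3 m libraries. Replicate 2 of 3 m was the lowest by far and the other 5 libraries lay close together, so that the ages overlapped. The fitted log2 fold change was 0.48 (95% interval -0.76 to 1.72), and without 3 m replicate 2 it was 0.02 (-0.34 to 0.38). In FPKM, *Vamp8* made up 68.3%, 71.2% and 67.3% of the summed R-SNARE level in the 24 m libraries, against 63.5%, 18.5% and 68.7% in the 3 m libraries.

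*Vamp3*, the cellubrevin of recycling endosomes and constitutive secretion, had the most negative fitted value of the 35 genes. It stood at 50.9, 55.3 and 49.98 CPM at 24 m, against 71.0, 176 and 44.8 CPM at 3 m. The highest value came from 3 m replicate 2 and the lowest from 3 m replicate 3, below all 24 m libraries. edgeR fitted a log2 fold change of -0.90 ± 0.46 (SE; adjusted p = 0.828), and -0.15 without 3 m replicate 2 (95% interval -0.62 to 0.31). Its share of the R-SNARE FPKM was 10.2%, 10.6% and 10.4% at 24 m, against 12.9%, 53.1% and 9.23% at 3 m. In 3 m replicate 2 alone *Vamp3* exceeded *Vamp8* in FPKM.

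*Vamp2*, synaptobrevin, the R-SNARE of regulated exocytosis in neurons and many secretory cells, differed little between libraries. It had 86.8, 72.3 and 87.5 CPM at 24 m, against 94.0, 66.5 and 85.9 CPM at 3 m, with overlapping ages and the lowest value again in 3 m replicate 2. Its log2 fold change was 0.00 (95% interval -0.54 to 0.54). *Vamp4*, an R-SNARE of the trans-Golgi network, was at 24.5, 19.9 and 30.5 CPM at 24 m, against 42.7, 55.7 and 26.1 CPM at 3 m. Replicate 3 of 3 m lay among the 24 m libraries and the other 3 m replicates above them. The log2 fold change of *Vamp4* was -0.73 ± 0.34 (SE; adjusted p = 0.828), and -0.46 without 3 m replicate 2. The 2 remaining R-SNAREs, *Vamp5*, known as myobrevin, and *Vamp1*, the other neuronal synaptobrevin, lay between 3.38 and 27.6 CPM, each with its lowest value in 3 m replicate 2.

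**Figure D2:**
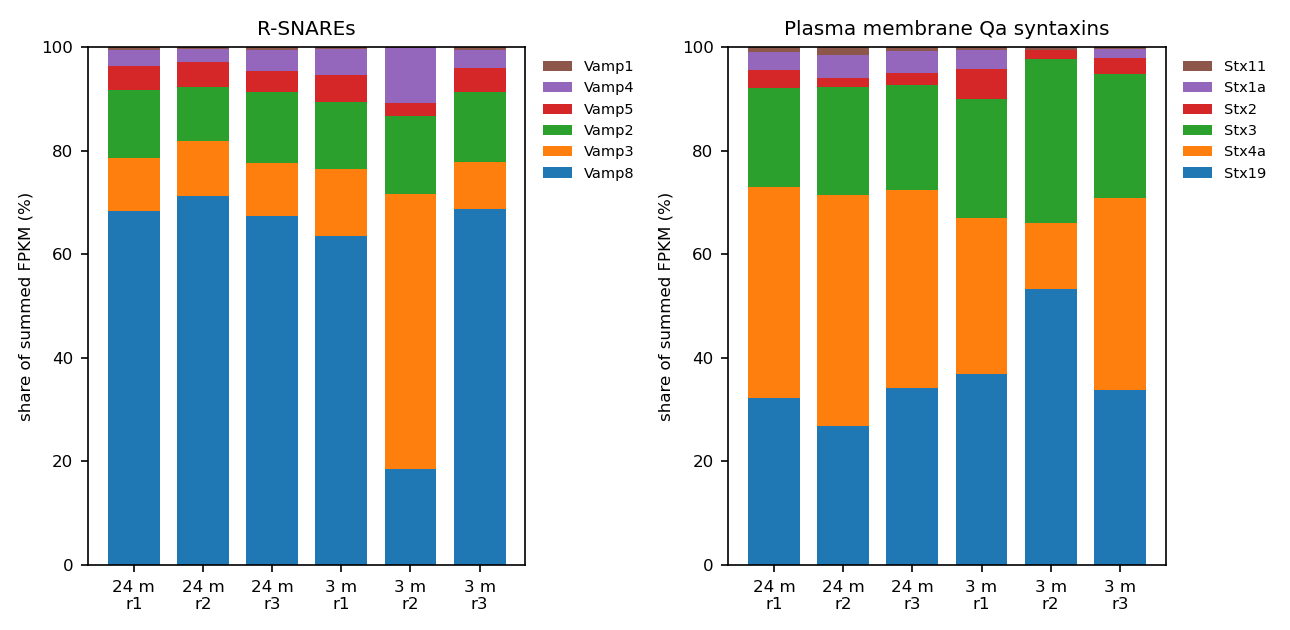
Share of each gene in the summed FPKM of its family in each library, in percent, for the R-SNAREs (left) and the plasma membrane Qa syntaxins (right). *Vamp8* held 63.5% to 71.2% of the R-SNARE level in 5 libraries and 18.5% in 3 m replicate 2, where *Vamp3* held 53.1%.

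The SNAP proteins lend the Qb and Qc helices to the complex. *Snap23*, the SNAP of most non-neuronal cells and a partner in exocytosis at the plasma membrane, had 49.5, 50.7 and 54.5 CPM at 24 m, against 41.0, 164 and 51.6 CPM at 3 m. The other 5 libraries lay close together and 3 m replicate 2 at 3.31 times their mean, the highest such ratio of the 35 genes. Its log2 fold change was -0.73 (95% interval -1.84 to 0.39), and the sign turned, to 0.16 (-0.25 to 0.56), without that library. *Snap29*, which acts in fusion of autophagosomes and endosomes, had 37.1, 38.5 and 37.5 CPM at 24 m, against 34.6, 79.0 and 32.6 CPM at 3 m. Here too only 3 m replicate 2 was high, and the log2 fold change of -0.37 became 0.17 without it, when every 24 m library lay above the other 3 m libraries. *Snap47* lay between 13.8 and 24.5 CPM, with overlapping ages. Exons of 7 of the 38 genes overlap another gene, those of *Snap29*, *Snap47*, *Stx4a*, *Stx18*, *Syt7* and *Syt12* on the opposite strand and one of *Stx5a* on the same strand. The strand setting of the counting and its handling of shared reads are not given in the sources used here. The values of these genes may thus hold reads of their neighbours or lack reads shared with them.

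The syntaxins of the plasma membrane are the target for a vesicle that leaves the cell. *Stx3*, the apical syntaxin of epithelia, had the smallest unadjusted p of the 35 genes. It was at 42.8, 41.2 and 43.0 CPM at 24 m, against 51.6, 78.9 and 55.0 CPM at 3 m, and every 24 m library lay below every 3 m library. The log2 fold change was -0.55 ± 0.25 (SE; adjusted p = 0.828), and -0.33 (95% interval -0.70 to 0.04) without 3 m replicate 2, with the ages still apart. *Stx19*, a syntaxin without a transmembrane domain, was at 35.5, 26.3 and 35.5 CPM at 24 m, against 40.8, 65.2 and 38.2 CPM at 3 m. The ages did not overlap, with a narrow gap to 3 m replicate 3. Its log2 fold change was -0.57 ± 0.29 (SE; adjusted p = 0.828), and -0.28 without 3 m replicate 2.

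*Stx4a*, which encodes syntaxin 4 of the basolateral membrane, had 37.8, 36.7 and 33.2 CPM at 24 m, against 27.9, 13.2 and 35.03 CPM at 3 m. Replicate 3 of 3 m lay among the 24 m libraries and the other 3 m libraries below them. This gave a log2 fold change of 0.50 (95% interval -0.33 to 1.33), and 0.19 without 3 m replicate 2. *Stx4a*, *Stx19* and *Stx3* made up most of the summed FPKM of this family, with *Stx4a* at 40.8%, 44.6% and 38.1% at 24 m, against 30.1%, 12.8% and 37.0% at 3 m. *Stx2*, epimorphin, known for a role in secretion as well as in epithelial shape, was low, at 6.28, 2.88 and 3.72 CPM at 24 m, against 10.4, 3.28 and 5.44 CPM at 3 m, with overlapping ages and a log2 fold change of -0.57 (95% interval -1.93 to 0.79). That value was -0.02 without 3 m replicate 1 and -0.88 without 3 m replicate 2.

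*Stx1a*, the neuronal syntaxin, reached at most 4.19 CPM and had no count in 3 m replicate 2, which allows up to 0.107 CPM there (3 counts; counting error only). *Stx11*, known for cytotoxic granule release in lymphocytes, lay between 1.19 and 2.21 CPM at 24 m, against 0.791 to 1.21 CPM at 3 m. Its ages overlapped by 1 library. Of the 11 leukocyte markers 9 could be tested, and all 9 had a fitted value above 0. For 5 of the 9 every 24 m library lay above every 3 m library (9.74% of all genes tested), the ages overlapped for the other 4, and 4 of the 11 were at 0 in every 3 m library. Their part in the values of *Stx11* was not tested.

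The syntaxins of internal membranes were more abundant than those of the plasma membrane, with a summed level of 102 ± 3.18 FPKM at 24 m and 110.05 ± 4.04 FPKM at 3 m (mean ± SD, n = 3 libraries), against 38.0 ± 2.41 FPKM at 24 m and 39.8 ± 2.56 FPKM at 3 m for the plasma membrane group. *Stx12*, syntaxin 13 of recycling endosomes, led them with 133, 125 and 137 CPM at 24 m, against 184, 188 and 136 CPM at 3 m. Replicates 1 and 2 of 3 m were high, and replicate 3 of 3 m lay among the 24 m libraries. *Stx12* thus had a log2 fold change of -0.36 (95% interval -0.89 to 0.16), and -0.28 without 3 m replicate 2. *Stx7*, of late endosomes and lysosomes, had 61.6, 64.0 and 64.4 CPM at 24 m, against 74.4, 113 and 71.5 CPM at 3 m. All 24 m libraries lay below all 3 m libraries. In the fit the log2 fold change was -0.45 ± 0.25 (SE; adjusted p = 0.828), and -0.20 without 3 m replicate 2.

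*Stx17*, the syntaxin that autophagosomes recruit before they fuse with lysosomes, was at 73.7, 78.6 and 81.4 CPM at 24 m, against 71.3, 119.55 and 85.2 CPM at 3 m. Only 3 m replicate 2 was apart, and the log2 fold change of -0.24 came to 0.00 without it. *Stx5a*, which encodes syntaxin 5 of transport between endoplasmic reticulum and Golgi, was the only one of the 35 genes that was higher in each 24 m library than in any of 3 m, at 93.0, 89.4 and 81.9 CPM at 24 m, against 81.0, 52.1 and 81.5 CPM at 3 m. The gap between the ages was narrow, and the log2 fold change was 0.30 (95% interval -0.28 to 0.88), and 0.12 without 3 m replicate 2. *Stx16* of the trans-Golgi network and *Stx18* of the endoplasmic reticulum had log2 fold changes of 0.21 and 0.23. The Qc syntaxins of the Golgi and endosomes, *Stx6* and *Stx8*, had log2 fold changes of 0.10 and 0.16, and all 4 of these genes had overlapping ages and a 95% interval between -1 and 1. Without 3 m replicate 2 the values were 0.05 for *Stx16* and 0.20 for *Stx18*, and the sign turned for *Stx6* and *Stx8*, to -0.07 and -0.09.

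Among the Munc18 proteins *Stxbp2* was the most abundant. Munc18-2 binds syntaxin 3 and syntaxin 11 and is needed for granule release in epithelial and blood cells. *Stxbp2* was at 137, 135 and 133 CPM at 24 m, against 151, 55.0 and 147 CPM at 3 m. Replicate 2 of 3 m was the lowest and the other 3 m replicates lay above all 24 m libraries. Fitted over all libraries, the log2 fold change was 0.20 (95% interval -0.65 to 1.04) and the sign turned, to -0.14 (-0.49 to 0.21), without that library. *Stxbp2* made up 73.0% to 75.2% of the FPKM of the Munc18 family at 24 m, against 74.9%, 56.4% and 78.7% at 3 m.

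*Stxbp3*, Munc18-3, the partner of syntaxin 4, had the smallest standard error of the 35 genes in the fit with all libraries, and the ninth smallest without 3 m replicate 2. It was at 45.9, 49.1 and 51.0 CPM at 24 m, against 50.8, 46.8 and 43.5 CPM at 3 m, with no library apart. Its fitted log2 fold change was 0.05 ± 0.22 (SE), with a 95% interval of -0.45 to 0.55. A pseudogene, *Stxbp3-ps*, with 380 counts against 8705 for *Stxbp3*, may share reads with it.

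Of the other syntaxin binding proteins, *Stxbp5*, tomosyn, which occupies syntaxin and SNAP proteins in place of a VAMP, was singled out after its values were seen. It had 40.7, 32.4 and 33.4 CPM at 24 m, against 23.3, 49.0 and 27.8 CPM at 3 m. All 24 m libraries lay above 3 m replicates 1 and 3 and 3 m replicate 2 above them all. With all libraries the log2 fold change was 0.09, and 0.47 (adjusted p = 0.456) without 3 m replicate 2, when it was the only one of the 35 genes with an unadjusted p under 0.05, beside 10.4% of all genes tested. *Stxbp4*, a syntaxin 4 binding protein known as Synip, lay between 1.58 and 17.1 CPM and *Stxbp6*, amisyn, between 0 and 1.88 CPM.

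*Syt7* was the most abundant synaptotagmin. Synaptotagmin 7 is a calcium sensor of high affinity, known for slow and lysosomal exocytosis. *Syt7* was at 96.9, 101 and 101 CPM at 24 m, against 58.4, 90.5 and 108 CPM at 3 m. The 24 m libraries lay close together, within the range of the 3 m libraries, of which replicate 1 was the lowest. This gave a log2 fold change of 0.22 (95% interval -0.40 to 0.84), 0.27 without 3 m replicate 2 and 0.01 without 3 m replicate 1. *Syt7* made up 72.2% to 77.1% of the summed synaptotagmin FPKM at 24 m, against 69.4% to 74.9% at 3 m, and 69.4% was the value of 3 m replicate 2.

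*Syt11*, a synaptotagmin that does not bind calcium, had 11.4, 7.81 and 10.03 CPM at 24 m, against 8.50, 21.8 and 10.5 CPM at 3 m. Only 3 m replicate 2 was high, and the log2 fold change of -0.48 became 0.04 without it. *Syt5*, a calcium-binding synaptotagmin of dense core vesicles, had the largest fitted value of the 35 genes, at very low counts. It was at 1.59, 4.53 and 0.506 CPM at 24 m, against 0.482, 0 and 1.30 CPM at 3 m. The ages overlapped, replicate 2 of 24 m stood out, and the log2 fold change of 1.88 had a 95% interval from -1.68 to 5.45. It came to 0.81 without 24 m replicate 2, 1.30 without 3 m replicate 2 and 3.17 without 3 m replicate 3. *Syt3* lay at 2.65 to 3.21 CPM at 24 m, against 3.56 to 4.27 CPM at 3 m, with ages that did not overlap and a log2 fold change of -0.42 (95% interval -1.71 to 0.87). *Syt2*, *Syt10*, *Syt12*, *Syt15* and *Syt17* did not exceed 2.85 CPM in any library, and all 5 had a count of 0 in 3 m replicate 2. The neuroendocrine markers, whose cells use several neuronal members of these families, summed to 4.22, 5.36 and 3.96 CPM at 24 m, against 2.51, 1.82 and 3.01 CPM at 3 m, and 2 of the 8 in the table could be tested. Their part in the low values of neuronal members was not tested.

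The ages did not overlap for 5 of the 35 genes (14.3%), beside 15.1% of all genes tested. The genes with every 24 m library below every 3 m library were *Stx3*, *Stx7*, *Stx19* and *Syt3* (11.4%, beside 5.41% of all genes tested), and *Stx5a* was the only one the other way (2.86%, beside 9.74%). Without 3 m replicate 2, *Stxbp2* joined the first group and *Snap29*, *Stx11* and *Stxbp5* joined *Stx5a*, which made 5 lower (14.3%, beside 11.8% of all genes), 4 higher (11.4%, beside 14.4%) and 9 in all, beside 26.2%. *Syt3*, *Stx11* and *Stxbp5* are named here after their values were seen.

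**Figure D3:**
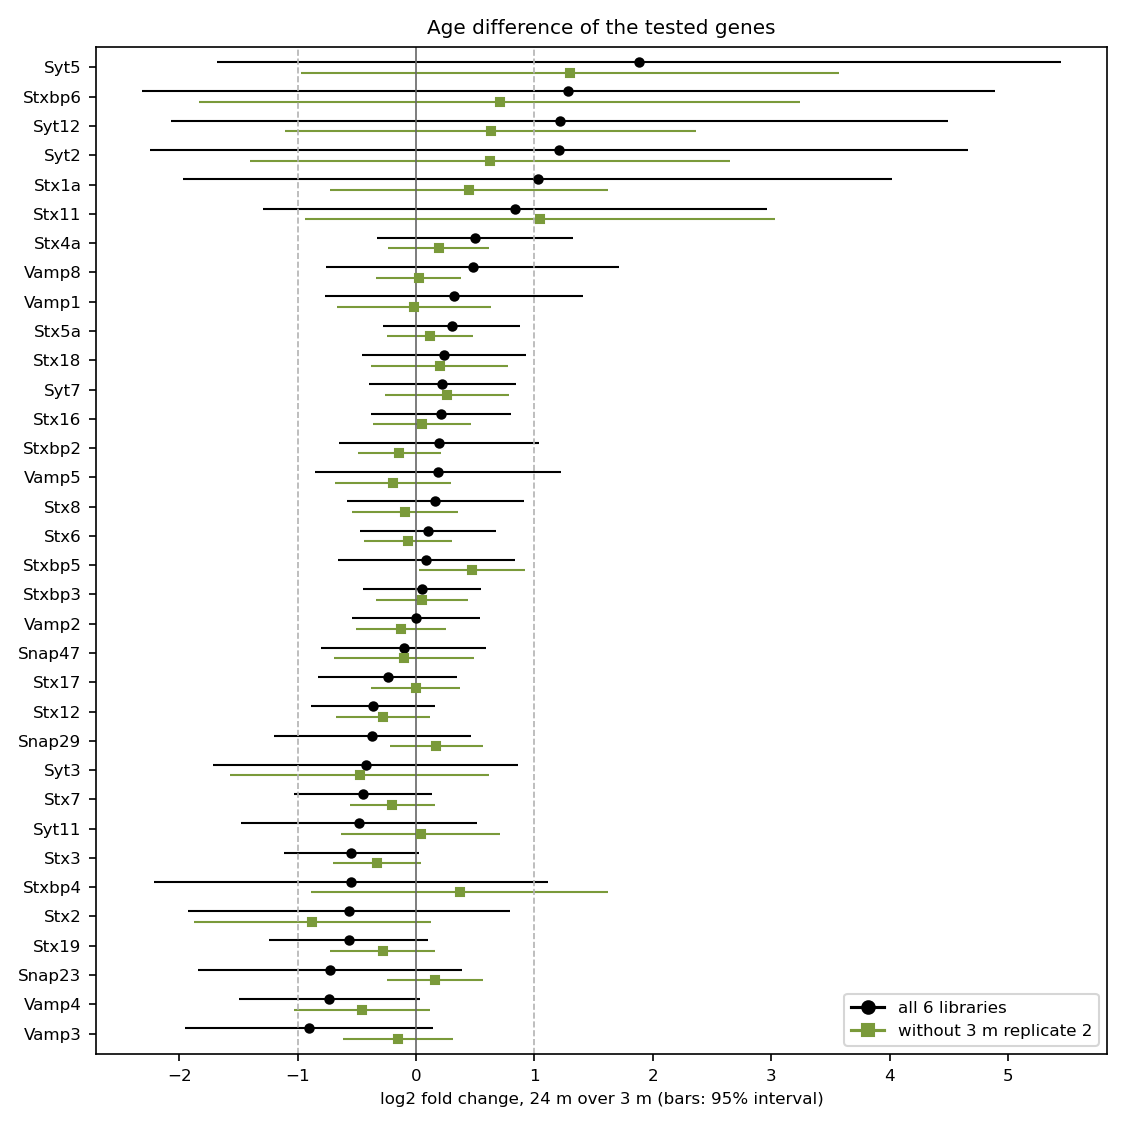
Fitted log2 fold change, 24 m over 3 m, of 34 of the 35 tested genes with its 95% interval, from all 6 libraries (black circles) and without 3 m replicate 2 (green squares), and dashed lines at a 2-fold difference. The intervals from all libraries include 0 for every gene drawn, and over the 35 genes the median standard error was 0.36 with all libraries and 0.21 without 3 m replicate 2.

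How large a difference the data leave room for is given by the intervals. With all libraries, the 95% interval of the log2 fold change lay between -1 and 1, that is within a 2-fold difference, for 12 of the 35 genes (34.3%, beside 26.8% of all genes tested). These were *Vamp2*, *Snap47*, *Stx5a*, *Stx6*, *Stx8*, *Stx12*, *Stx16*, *Stx17*, *Stx18*, *Stxbp3*, *Stxbp5* and *Syt7*. Without 3 m replicate 2 it did so for 25 of the 35 genes (71.4%, beside 48.2% of the 16216 genes of that fit). *Vamp8*, *Vamp3*, *Snap23*, *Stx3*, *Stx4a* and *Stxbp2* were among them. These shares were not matched for the level of the genes. The genes of low counts, such as *Stx1a*, *Syt2*, *Syt5* and *Syt12*, had intervals that reached beyond these limits in both fits.

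The spread between the 3 m libraries was larger with replicate 2 than without it. Over the 25 of these genes with a mean of 10 CPM or more, the median SD of log2 CPM was 0.096 at 24 m and 0.45 at 3 m, beside 0.17 at 24 m and 0.48 at 3 m over all genes of that level. The median at 3 m was 0.18 without that replicate, then from 2 libraries, beside 0.21 over all genes of that level. The SD was larger at 3 m for 30 of the 35 genes (85.7%, beside 79.5% of all genes tested), and without 3 m replicate 2 for 24 (68.6%, beside 51%). An SD from 2 libraries does not compare directly with an SD from 3. Among the 5 libraries other than 3 m replicate 2, the highest value was within 1.5 times the lowest for 18 of the 35 genes (51.4%, beside 30.1%). The summed CPM of the 38 genes was 1559, 1570 and 1555 at 24 m, against 1627, 1644 and 1581 at 3 m. In CPM, 3 m replicate 2 thus had the highest sum, near those of the other 3 m libraries, although single genes were far apart. The summed FPKM was 424, 428 and 424 at 24 m, against 417, 372 and 436 at 3 m. By this measure 3 m replicate 2 was the lowest and apart from the rest.

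In 3 m replicate 2, 12 of the 35 genes were above all other libraries (34.3%, beside 30.8% of all genes tested) and 15 were below all others (42.9%, beside 40.8%). Within several families, such as the R-SNAREs, the genes went in opposite directions. Relative to the mean of the other 5 libraries, *Vamp3* stood at 3.24 times and *Vamp4* at 1.94 times, whereas *Vamp8* stood at 0.178, *Vamp5* at 0.324 and *Vamp1* at 0.368 times. Among the syntaxins of the plasma membrane, *Stx19* and *Stx3* stood at 1.85 and 1.69 times and *Stx4a* at 0.386 times. Among the SNAP and Munc18 genes shown, only some were apart in this library. *Snap23* and *Snap29* stood at 3.31 and 2.19 times, whereas *Snap47*, at 1.05 times, lay within the range of the other 5 libraries. *Stxbp2* stood at 0.391 times, whereas *Stxbp3*, at 0.974 times, lay within that range. Both Qc syntaxins were low, with *Stx6* at 0.676 and *Stx8* at 0.527 times.

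**Figure D4:**
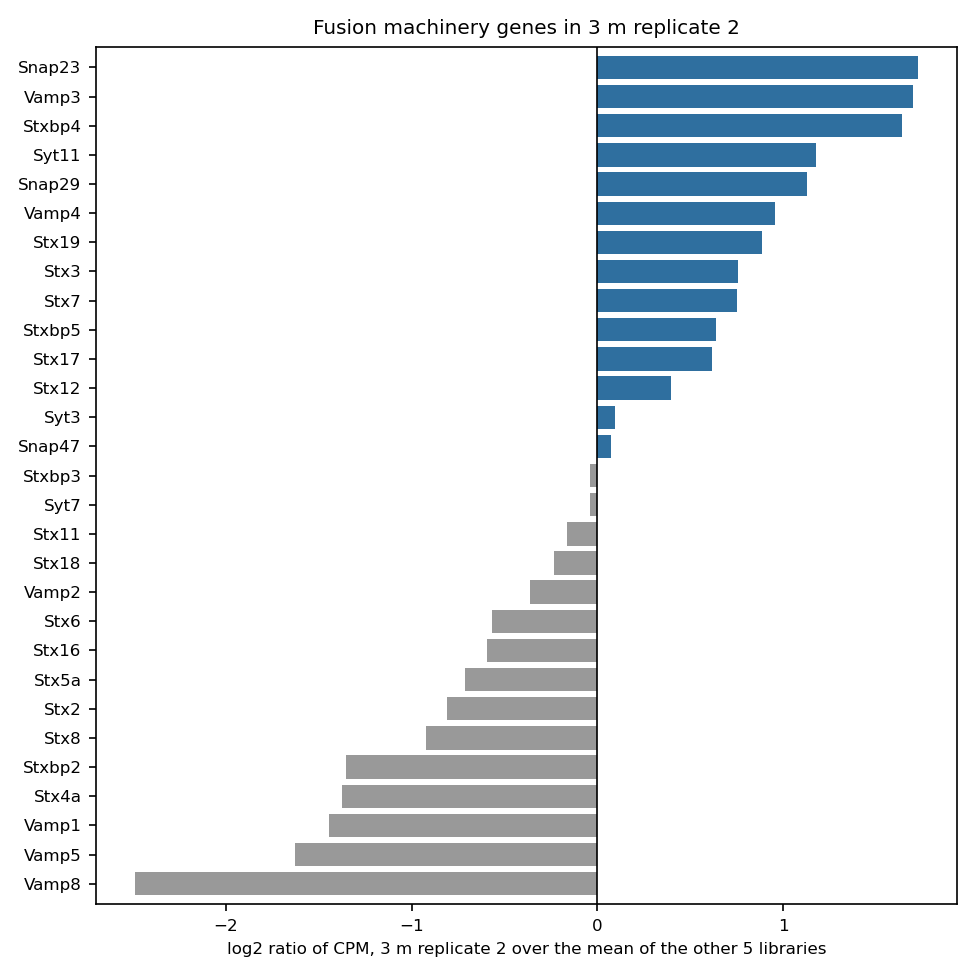
Log2 ratio of CPM in 3 m replicate 2 to the mean of the other 5 libraries for 29 of the 30 tested genes that had a count there; the 5 tested genes with a count of 0 in this library are not drawn. Blue bars are ratios above 1 and grey bars ratios below 1, from 3.31 for *Snap23* to 0.178 for *Vamp8*.

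*Vamp8* and *Vamp5* are neighbouring genes of chromosome 6, and both were low in this library together with *Stxbp2*, whereas *Snap23* was the highest. The 250 bases before the start of these genes, and of *Stx3*, which had the smallest p between the ages, are shown for this reason (RefSeq, GRCm38.p6; 5′ to 3′ on the strand of the gene). Capitals mark the motifs searched on either strand, the GC box GGGCGG, the CCAAT box CCAAT, the TATA box TATAAA, the E-box CACGTG and the cAMP response element TGACGTCA.
*Vamp8* (chr6:72390668-72390917, minus strand, 43.6% G and C, 3 CpG): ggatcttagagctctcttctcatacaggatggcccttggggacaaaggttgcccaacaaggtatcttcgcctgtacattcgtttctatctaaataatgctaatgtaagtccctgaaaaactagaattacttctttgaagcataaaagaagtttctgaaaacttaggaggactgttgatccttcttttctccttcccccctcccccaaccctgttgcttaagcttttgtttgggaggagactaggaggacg
*Vamp5* (chr6:72380469-72380718, minus strand, 66% G and C, 19 CpG): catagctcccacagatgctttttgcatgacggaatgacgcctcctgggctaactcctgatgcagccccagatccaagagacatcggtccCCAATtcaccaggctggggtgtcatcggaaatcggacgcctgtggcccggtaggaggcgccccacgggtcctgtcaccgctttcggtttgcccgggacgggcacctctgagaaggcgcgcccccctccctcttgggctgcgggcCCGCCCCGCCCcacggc
*Stxbp2* (chr8:3630859-3631108, plus strand, 60.4% G and C, 17 CpG): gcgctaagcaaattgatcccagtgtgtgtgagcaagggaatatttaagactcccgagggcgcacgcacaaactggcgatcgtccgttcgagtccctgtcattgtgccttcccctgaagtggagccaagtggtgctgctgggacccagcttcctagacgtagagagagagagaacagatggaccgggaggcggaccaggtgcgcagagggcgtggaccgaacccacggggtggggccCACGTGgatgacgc
*Snap23* (chr2:120567421-120567670, plus strand, 58.4% G and C, 17 CpG): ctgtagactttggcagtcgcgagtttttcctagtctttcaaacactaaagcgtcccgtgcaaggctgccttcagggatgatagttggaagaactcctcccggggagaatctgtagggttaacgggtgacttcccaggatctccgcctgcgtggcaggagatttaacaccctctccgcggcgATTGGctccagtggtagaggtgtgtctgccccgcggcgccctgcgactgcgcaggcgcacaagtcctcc
*Stx3* (chr19:11819404-11819653, minus strand, 42% G and C, 6 CpG): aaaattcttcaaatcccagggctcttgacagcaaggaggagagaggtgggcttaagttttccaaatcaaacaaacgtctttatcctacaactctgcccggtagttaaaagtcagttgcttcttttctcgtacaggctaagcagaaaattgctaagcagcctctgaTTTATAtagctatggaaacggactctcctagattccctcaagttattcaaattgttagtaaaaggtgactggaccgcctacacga

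The sequence before *Vamp8* held none of the 5 motifs. That of *Vamp5* held 2 GC boxes, which overlap by 1 base, and 1 CCAAT box, *Stxbp2* 1 E-box, *Snap23* 1 CCAAT box and *Stx3* 1 TATA box. A promoter entry was found for 31 of the 38 genes, with 37 promoters in all. Of these promoters 59.5% held a GC box, beside 32.7% of all 32851 promoters of the table and 56% of the promoters of genes tested. A CCAAT box was in 37.8% (33.8% of all promoters, 34.9% of those of genes tested), a TATA box in 5.41% (12.4% and 6.68%), an E-box in 8.11% (6.02% and 8.15%) and a cAMP response element in 2.7% (1.55% and 2.51%). The median content of G and C was 61.2%, beside 52.4% for all promoters and 59.6% for those of genes tested. *Vamp8* and *Stx3*, at 43.6% and 42%, were thus below all 3 of these medians.

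The genes around this machinery were counted in the same fit. Of the other SNAREs of internal membranes, all 10 were tested and 0 were called by edgeR or DESeq2. The ages did not overlap for *Bet1* and *Gosr1*, lower at 24 m, and *Use1*, higher at 24 m, all SNAREs of traffic between endoplasmic reticulum and Golgi, which is 3 of 10 genes, beside the 15.1% of all genes tested (5.41% lower and 9.74% higher at 24 m). Of 35 genes for SNARE disassembly, priming and tethering in the table, 31 were tested and 0 were called by either tool. The ages did not overlap for 3 of the 31 (15.1% of all genes tested), all lower at 24 m (5.41% of all genes tested), namely *Napg*, which helps to take SNARE complexes apart, *Cadps2*, a priming factor of dense core vesicles, and *Exoc2*, a subunit of the exocyst tether. *Exoc2* was named after its values were seen. The median log2 fold change of this list was -0.08, and -0.04 without 3 m replicate 2. That of the other SNAREs was 0.10, and its sign turned, to -0.06, without that library.

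Of 22 genes for secretory Rab proteins, their effectors and regulators in the table, 17 were tested and 0 were called by edgeR or DESeq2, with a median log2 fold change of 0.07, which turned to -0.12 without 3 m replicate 2. *Rab27b*, which encodes a GTPase that brings secretory granules to the plasma membrane, was the only gene of the 3 lists with an unadjusted p under 0.05, and lay among the 2.3% of all genes tested that met it with a lower level at 24 m. It was at 124, 110.4 and 145 CPM at 24 m, against 198, 623 and 209 CPM at 3 m. The ages did not overlap, and 3 m replicate 2 was again far above the others. The log2 fold change was -1.44 ± 0.45 (SE; adjusted p = 0.688 with edgeR and 0.0877 with DESeq2), and -0.68 (adjusted p = 0.152 with edgeR) without 3 m replicate 2. *Mlph*, a Rab27 effector known from melanosome transport, was at 121, 131 and 100.4 CPM at 24 m, against 95.9, 71.9 and 96.9 CPM at 3 m. No 3 m library reached the 24 m values, with a log2 fold change of 0.41 and an adjusted p of 0.828. *Sytl3*, another effector of Rab27, also had ages that did not overlap, at 2.32 to 6.48 CPM at 24 m, against 0 to 1.89 CPM at 3 m, and was named after its values were seen. *Rab27b*, *Mlph* and *Sytl3* were the 3 of 17 genes of the list whose ages did not overlap, beside 15.1% of all genes tested.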

How the data were processed

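RNA-seq counts of sorted AT2 cells were analysed. The deposited counts are whole numbers per gene with no normalization; HISAT2, featureCounts, DESeq2 and the build GRCm39 stand in the submitters' processing notes, and versions, annotation, strand setting and the handling of shared reads are not given in the sources used here. The FPKM values were computed by the authors in the same table and were used for levels between genes and for shares, with no test. No column belonged to another sample and all 6 libraries were used.

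Counts of 24224 genes were filtered with filterByExpr of edgeR 4.0.16 (R 4.3.3), which kept 14899, scaled by TMM and compared with the quasi-likelihood test, with age as the only term and p adjusted over all genes tested. Intervals cover 95%. The alternatives were DESeq2 1.42.0, limma-voom (limma 3.58.1), other size factors, other filters, no minimum fold, replicate number as a block and each library left out; DESeq2 without 3 m replicate 2 was added after the data had been seen. Depth was 28827930 to 32394985 counts per library.

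The genes, lists and rules were chosen with earlier results of these data known. Values in every library are given for the 12 genes of highest mean FPKM, the 12 of smallest unadjusted p and those known for exocytosis in secretory epithelium; genes of other lists were named from the 4 smallest p of their list. Promoters and exon overlaps came from GRCm38.p6 (RefSeq) and GENCODE vM21 on GRCm38, matched by symbol or identifier; no coordinates of the authors' build are given. *Vamp7* and *Snap25* were not analysed here. The values of 1 of the 38 genes and of 1 gene below the count minimum are not reported here, and counts over the genes include the first of these.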

Additional observations from a re-analysis of the deposited data

How the results depend on the processing

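The count of these genes called between the ages was 0 in the fit reported, in its 14 alternatives (DESeq2 without 3 m replicate 2 among them) and with no minimum fold. Over all genes the count called was 0 in the fit reported, 314 with DESeq2, 207 with no filter on low counts, 459 with DESeq2 without 3 m replicate 2 and 0 to 85 when libraries were left out in turn (85 without 3 m replicate 2, 1 without 24 m replicate 3). Unadjusted p under 0.05 was reached by *Vamp4*, *Snap23* and *Vamp3* with no filter (lowest adjusted p = 0.341; 7.89% of these genes, beside 8.53% of all genes), by *Snap23* and *Stx3* without 3 m replicate 1 (5.56%, beside 8.74%) and by *Vamp4* and *Vamp3* without 3 m replicate 3 (5.41%, beside 13.3%). Deviations from the age mean correlated at 0.0143, -0.0795 and -0.149 for same-numbered replicates, and at -0.0754 to 0.139 for the others. With 3 libraries per age these values cannot exclude a pairing by replicate number. With a replicate block 0 genes were called over all genes.

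Of 280 fold changes of the genes with values in every library, 264 kept their sign and 16 did not. Leaving out libraries gave -1.05 to 0.16 for *Snap23*, -0.58 to 0.17 for *Snap29*, -0.14 to 0.42 for *Stxbp2*, -0.72 to 0.0398 for *Syt11* and -0.13 to 0.11 for *Vamp2* (log2). DESeq2 without 3 m replicate 2 gave 0.15, 0.16, -0.15, 0.0293 and -0.14 for the same genes in this order. *Vamp2*, at 0.0014 in the fit reported, was at -0.0094 with DESeq2, -0.0098 with RLE size factors, -0.0042 with no filter and -0.0061 with a filter of at least 1 CPM in 3 libraries. The count of genes whose ages did not overlap was 5, and 6 to 16 when libraries were left out (17.1% to 45.7%, beside 19.8% to 34.5% of all genes), where fewer libraries make it easier to meet. With a minimum of 0, 10 or 100 counts the rule gave 44, 41 or 35 genes. With 3 pools per age, and 1 of them apart from the rest at 3 m, the intervals of most of these genes leave room for a 2-fold difference.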
